A study of Homo sapiens with 8 samples.

Results

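The 10 genes followed here were the keratins KRT5, KRT6A, KRT7, KRT8, KRT17, KRT18 and KRT19 and the basal-like tumour markers S100A2, TP63 and LY6D. They were chosen by symbol from the 60675 Ensembl genes in the count tables. The study measured polyA+ RNA in Panc10.05, an epithelial cell line from a human pancreatic adenocarcinoma, to learn how cells that had become resistant to indisulam differ from their parental cells. Indisulam is a sulfonamide that recruits the splicing factor RBM39 to the ubiquitin ligase receptor DCAF15, so that RBM39 is degraded. The 8 libraries form 4 groups of 2. Parental untreated cells received no drug, and parental indisulam cells received 2 µM indisulam for 18 h. Resistant untreated cells came from the culture adapted to the drug and had been kept without it for a week, according to the study's methods. Resistant indisulam cells were kept in 2 µM indisulam without interruption, so the exposure of the treated parental and resistant cells was not matched in time. The labels name 1 resistant line and do not say whether it is a clone, and the study describes the 2 libraries of a group as technical replicates, so the p-values measure only the spread between these libraries. The growth and treatment notes name A549, a lung line, while titles and cell line entries read Panc10.05, and the titles were followed.

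Keratins are the intermediate filament proteins of epithelial cells and polymerise as obligate partners of an acidic type I and a basic type II protein. KRT8 with KRT18, joined by KRT7 and KRT19 in ducts, forms the network of simple epithelia such as the pancreatic duct. KRT5 with KRT14 marks basal cells of stratified epithelia, and KRT6A, KRT16 and KRT17 are induced in wounded or hyperproliferative epidermis. TP63 encodes p63, the transcription factor of basal epithelial cells. S100A2 is a calcium-binding protein and LY6D a GPI-anchored surface protein, and both are used with KRT5, KRT6A, KRT17 and TP63 to recognise the basal-like subtype of pancreatic cancer.

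The libraries held 65266253 to 108002436 reads assigned to genes. The labelled epithelial type was checked against 6 markers (EPCAM, CDH1, CLDN4, CLDN7, ELF3 and MUC1), which had reads in every library and summed to 1040 to 1320 CPM, the read count relative to a library size scaled by trimmed mean of M-values (TMM). Markers of the other cell types stayed low. The 6 fibroblast markers summed to 1.35 to 1.89 CPM in 3 groups and to 3.97 and 4.03 CPM in resistant indisulam libraries, nearly all of it COL1A1, with DCN and LUM at 0 reads. The 5 immune markers summed to at most 0.62 CPM, the 3 endothelial markers to at most 0.341, the 4 acinar markers to at most 0.0462 and the 3 lung alveolar markers to at most 0.00914, and the 3 endocrine markers had 0 reads.

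Of the 10 genes, 7 passed the filter on low counts and were tested with 16661 genes in all. KRT5, KRT6A and TP63 did not pass. LY6D passed because of its reads in the resistant indisulam group, so its presence among the tested genes depends on the group in which it is high. Its values are therefore given from the filtered fit and from the alternative without a filter. Counts of called genes are given over the other 6, except in the closing section on processing, which includes LY6D. Both choices were made after its values were seen.

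Promoter sequences were shown for 3 of the genes that behaved differently, KRT8 (abundant and higher in the resistant line), S100A2 (between 30.8 and 37.6 CPM in every library) and TP63 (nearly without reads). They are the 250 bases before a RefSeq start on GRCh38.p14, 5′ to 3′ on the strand of the gene, from chr12:52926470-52926719 on the minus strand for KRT8, chr1:153565845-153566094 on the minus strand for S100A2 and chr3:189631139-189631388 on the plus strand for TP63. The GENCODE v44 annotation places no exon in these 3 windows. The KRT8 and S100A2 windows lie inside the annotated span of their genes, before the start of 1 transcript form. The TP63 window ends just before the annotated start of its gene at 189631389. Counts per gene do not tell which start was used, and this was not tested.
KRT8: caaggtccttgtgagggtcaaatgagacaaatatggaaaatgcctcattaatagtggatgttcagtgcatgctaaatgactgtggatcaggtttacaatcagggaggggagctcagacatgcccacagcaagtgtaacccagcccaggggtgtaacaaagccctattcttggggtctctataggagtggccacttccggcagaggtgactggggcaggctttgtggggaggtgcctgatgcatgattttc
S100A2: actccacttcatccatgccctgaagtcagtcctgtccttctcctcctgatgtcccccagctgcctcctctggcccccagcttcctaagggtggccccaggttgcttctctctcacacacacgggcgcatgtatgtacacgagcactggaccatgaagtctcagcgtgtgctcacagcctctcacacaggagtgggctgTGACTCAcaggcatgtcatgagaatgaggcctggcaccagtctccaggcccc
TP63: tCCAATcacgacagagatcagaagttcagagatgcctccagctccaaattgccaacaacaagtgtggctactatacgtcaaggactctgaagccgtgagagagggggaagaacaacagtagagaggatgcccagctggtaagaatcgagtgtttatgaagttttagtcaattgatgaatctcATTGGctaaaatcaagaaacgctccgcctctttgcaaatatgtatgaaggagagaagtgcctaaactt
Capitals mark matches on either strand to any of 4 motifs, whose matches do not overlap in these windows. The TATA box was searched as TATAAA. The letters CCAAT stand for the site of the factor NF-Y. The letters GGGCGG stand for the GC box. The AP-1 site was searched as TGANTCA. S100A2 has a second start in the table, whose 250 bases lie in an annotated exon, are not printed and hold none of the 4 motifs. The printed S100A2 window held 1 match to the AP-1 letters and TP63 held 2 matches to the NF-Y letters. Over the 35116 RefSeq promoter windows of the same length, 6.57% held the AP-1 letters, 32.0% the NF-Y letters, 10.7% the TATA box and 42.6% the GC box. KRT8 held none of the 4, which says only that these letters are not in this window.

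The simple-epithelial keratins made up most of the signal of the 10 genes and were higher in the resistant line with and without the drug. KRT7, KRT8, KRT18 and KRT19 together took 0.562 to 0.593% of the gene reads in the parental libraries, 1.01% in both libraries of resistant cells off the drug, and 1.18% and 1.14% on it. KRT7, KRT8 and KRT18 lie on chromosome 12, at 52232520-52252186, 52897187-52949954 and 52948871-52952906, and KRT19 lies on chromosome 17 at 41523617-41528308 (GRCh38).

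KRT8, the type II partner of KRT18, had 2513 and 2442 CPM in untreated parental cells and 2445 and 2425 CPM after the drug. In resistant cells it had 4099 and 4184 CPM without indisulam and 4839 and 4675 CPM with it. The parental groups overlapped, all 4 resistant libraries lay above the parental ones, and the 2 resistant groups did not overlap each other. KRT8 was higher by 0.74 log2 units in resistant than in parental cells off the drug (SE 0.030, edgeR adjusted p = 2.72e-16) and by 0.97 on it (SE 0.030, adjusted p = 1.79e-18). It rose with indisulam in resistant cells by 0.20 (SE 0.030, adjusted p = 5.56e-06) and had a log2 fold change of -0.02 in parental cells (adjusted p = 0.496).

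KRT18, the type I partner, had 2256 and 2205 CPM in untreated parental cells and 2185 and 2309 CPM after the drug. In resistant cells the values were 4062 and 3916 CPM without indisulam and 4471 and 4318 CPM with it. The parental groups overlapped, and the resistant groups did not overlap each other or the parental ones. KRT18 was higher in resistant cells by 0.84 off the drug (SE 0.033, adjusted p = 1.32e-16) and by 0.97 on it (SE 0.033, adjusted p = 8.46e-18), and it rose with indisulam in resistant cells by 0.14 (SE 0.032, adjusted p = 0.000898). KRT8 and KRT18 lie on opposite strands and their exons overlap by 525 bases, and the strand setting of the counting is not given in the sources used here. Annotated pseudogene copies held 0.367 to 0.662% of the KRT8 reads and 0.0809 to 0.130% of the KRT18 reads of each library, so they were a small addition to either gene.

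KRT7, a type II keratin of ducts and glands, had 747 and 755 CPM in untreated parental cells and 799 and 794 CPM after the drug. In resistant cells the values were 1481 and 1502 CPM without indisulam and 1642 and 1582 CPM with it. No 2 of the 4 groups overlapped. The gene was higher in resistant cells by 0.99 off the drug (SE 0.029, adjusted p = 3.86e-19) and by 1.02 on it (SE 0.029, adjusted p = 2.72e-19), which is 1.99-fold and 2.02-fold. The rise with indisulam was 0.08 in parental cells (SE 0.028, adjusted p = 0.0136) and 0.11 in resistant cells (SE 0.028, adjusted p = 0.00187). KRT7-AS, an antisense RNA, overlaps the exons of KRT7 by 282 bases. The rise in resistant cells missed the threshold without resistant indisulam replicate 1 (0.08, adjusted p = 0.0705).

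KRT19, a small type I keratin of ductal cells, had 335 and 325 CPM in untreated parental cells and 354 and 347 CPM after the drug. In resistant cells the values were 531 and 528 CPM without indisulam and 546 and 531 CPM with it. The resistant libraries lay above all parental ones, while the 2 resistant groups overlapped. The gene was higher in resistant cells by 0.68 off the drug (SE 0.028, adjusted p = 3.71e-16) and by 0.62 on it (SE 0.028, adjusted p = 2.17e-15). Its log2 fold change with indisulam was 0.09 in parental cells (adjusted p = 0.0118) and 0.02 in resistant cells (adjusted p = 0.494), where it was called higher with library totals alone (0.07, adjusted p = 0.0272).

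**Figure D1:**
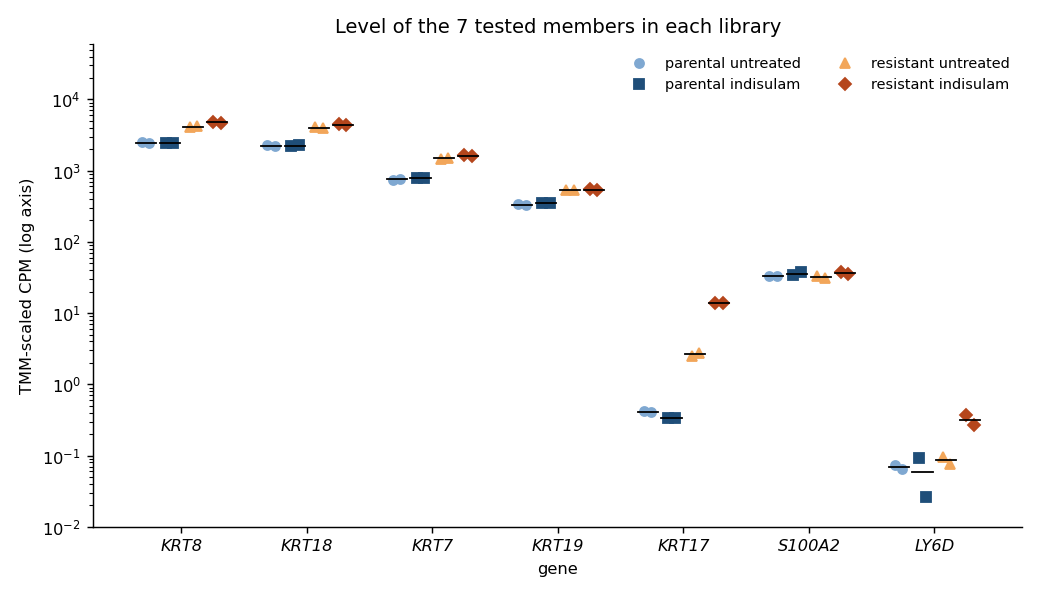
TMM-scaled CPM (log axis) of the 7 tested genes in each of the 8 libraries, with 1 symbol per library and a bar at the mean of each group. KRT8, KRT18, KRT7 and KRT19 sit higher in all resistant libraries, KRT17 spans 0.333 to 13.9 CPM, and S100A2 stays between 30.8 and 37.6 CPM.

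Per kilobase of exon, which allows levels of different genes to be set side by side, KRT18 was first in every group, with 727 ± 11.9 CPM per kb in parental untreated and 1432 ± 35.3 in resistant indisulam libraries (SD, n = 2). KRT8 followed with 360.0 ± 7.31 and 691 ± 16.9, then KRT7 with 188 ± 1.46 and 403 ± 10.7, and KRT19 with 141 ± 3.08 and 231 ± 4.69. These 4 were separated from one another by more than the SD in each of the 2 groups. S100A2 came next with 21.4 ± 0.0861 and 23.7 ± 0.871 CPM per kb, and KRT17 changed from 0.137 ± 0.00422 to 4.62 ± 0.0206. LY6D, TP63, KRT5 and KRT6A were each below 0.25 CPM per kb in every library.

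The type I and type II keratins among the 10 genes differed between the lines by a like factor. The type I sum (KRT17, KRT18 and KRT19) was 868 ± 15.0, 882 ± 26.7, 1527 ± 34.6 and 1667 ± 39.9 CPM per kb in parental cells without and with the drug and in resistant cells without and with it. The type II sum (KRT5, KRT6A, KRT7 and KRT8) was 548 ± 5.85, 553 ± 2.95, 975 ± 12.6 and 1095 ± 27.6 in the same order (SD, n = 2). In parental cells the ratio of the sums was 1.59 and 1.58 without the drug and 1.56 and 1.64 with it. In resistant cells it was 1.61 and 1.53 without the drug and 1.52 and 1.52 with it. The resistant indisulam ratios were the lowest, at a distance from the nearest other library, 1.53, that is smaller than the spread within each of the other groups. The ratio depends on the gene lengths used, because the annotated exon union of KRT8 (6881 bases) exceeds its longest transcript (2862 bases). With the longest transcript of each gene the group ratios were 0.984, 0.991, 0.970 and 0.942, so the size of the ratio is not fixed by these data, while its order among the groups was the same.

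**Figure D2:**
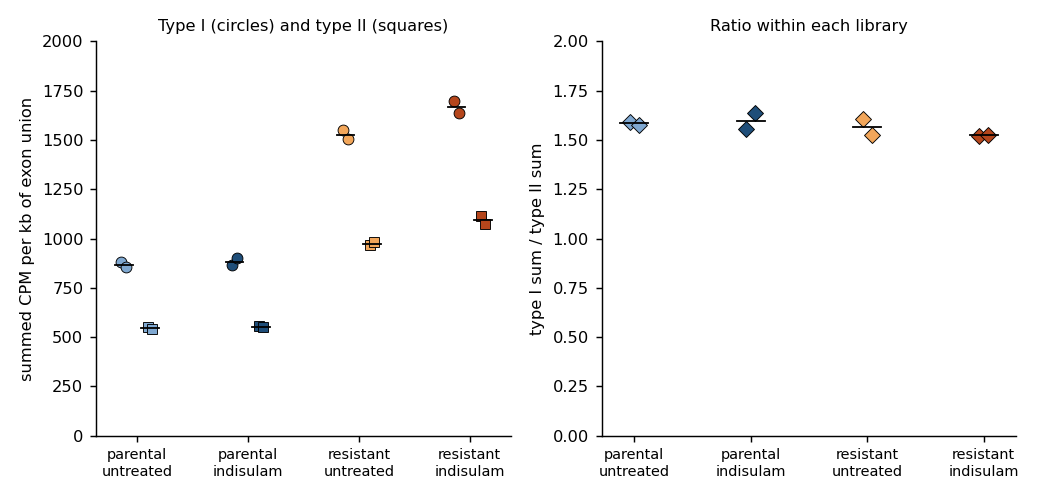
Left, summed CPM per kb of exon union of the type I genes KRT17, KRT18 and KRT19 (circles) and the type II genes KRT5, KRT6A, KRT7 and KRT8 (squares) in each library; right, the ratio of the sums in each library, with bars at group means. Both sums are higher in the resistant libraries, and the ratio lies between 1.52 and 1.64 in all 8.

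KRT17, a type I keratin of basal and stressed epithelia on chromosome 17 at 41619442-41624842 (minus strand), had the widest range of the 7 tested genes. It had 46 and 43 reads in untreated parental cells (0.420 and 0.402 CPM) and 25 and 26 after the drug (0.333 and 0.336 CPM). In resistant cells it had 188 and 177 reads without indisulam (2.54 and 2.73 CPM) and 930 and 1335 with it (13.8 and 13.9 CPM). No 2 groups overlapped in CPM, and the 2 libraries of each group lay close together. KRT17 was higher by 2.67 log2 units in resistant than in parental cells off the drug (6.37-fold, SE 0.135, adjusted p = 2e-14) and by 5.36 on it (41.2-fold, SE 0.115, adjusted p = 1.34e-21). With indisulam it rose by 2.40 in resistant cells (5.27-fold, SE 0.080, adjusted p = 3.48e-17), while its log2 fold change in parental cells was -0.30 (SE 0.214, adjusted p = 0.31). The difference of the 2 responses was 2.69 (SE 0.228, adjusted p = 2.7e-09). Over all alternatives run, this difference ranged from 2.66 to 2.81, with adjusted p from 1.55e-23 to 1.61e-07.

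Even at its highest KRT17 remained a minor keratin, at 4.62 CPM per kb beside 1432 for KRT18 in the same libraries. The responses to indisulam of weakly expressed genes leaned the way of the KRT17 values, and the line difference off the drug did not. Among the 3253 tested genes with a mean CPM of 1 to 10, the class that holds KRT17, 29.4% were called higher with indisulam in resistant cells and 20.3% lower, against 17.3% higher and 36.5% lower in parental cells. In the difference of responses 35.1% of that class were higher and 11.7% lower, and between the lines 31.2% were higher and 32.8% lower off the drug and 46.8% and 25.4% on it. The part of this shift in the KRT17 values was not tested. The fibroblast marker sum was also highest in the resistant libraries on the drug (3.97 and 4.03 CPM), with DCN and LUM at 0 reads in all 8 libraries. Annotated KRT17 pseudogenes held 1 to 8 reads per library, and an antisense non-coding gene (ENSG00000289252) overlaps its exons by 307 bases.

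The genes whose pattern over the 4 group means was nearest to that of KRT17, by Euclidean distance of centred log2 CPM, were CD24 (0.672), SALL4 (0.931), RAB15 (0.945), CCBE1 (1.01) and HAP1 (1.06). CD24, a surface glycoprotein of epithelial cells, had group means of 0.680 ± 0.0180, 0.787 ± 0.0376, 5.69 ± 0.0508 and 16.6 ± 0.274 CPM (SD, n = 2) for parental cells without and with the drug and resistant cells without and with it. RAB15, a small GTPase of vesicle traffic, had 2.72 ± 0.176, 1.97 ± 0.138, 19.4 ± 0.867 and 40.3 ± 0.385 CPM. The likeness rests on 4 group means and is a description.

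**Figure D3:**
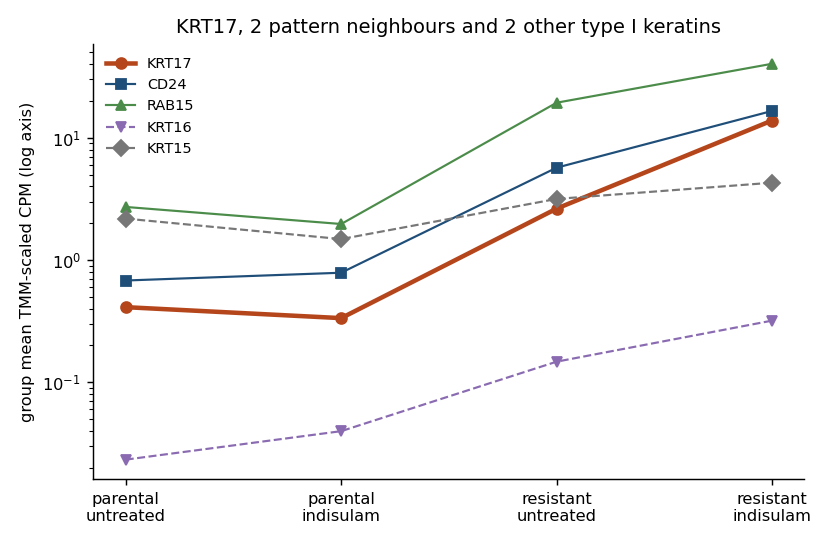
Group mean TMM-scaled CPM (log axis) of KRT17, of CD24 and RAB15 as 2 of the 5 genes nearest to its pattern, and of KRT16 and KRT15 as other type I keratins, over the 4 groups. KRT17 goes from 0.335 CPM in parental indisulam to 13.8 CPM in resistant indisulam cells, and KRT16 stays below 0.33 CPM throughout.

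KRT5, KRT14 and KRT6A were nearly absent. KRT5, the type II basal keratin (chromosome 12, 52514575-52520530), had 0 reads in 6 of 8 libraries, and 2 reads in resistant untreated replicate 2 and in resistant indisulam replicate 1. Its type I partner KRT14 had at most 3 reads in a library. KRT6A, the type II keratin of activated epidermis (chromosome 12, 52487176-52493257), had 0 reads in 5 libraries, 1 read in parental indisulam replicate 1 and resistant untreated replicate 2, and 2 reads in resistant indisulam replicate 2. A count of 0 allows up to 3 reads, or 0.0274 to 0.0462 CPM depending on the library, as counting error alone. Neither KRT5 nor KRT6A passed the filter, and no fold change is given for them. KRT6B, the near-identical copy of KRT6A, held 0, 0, 2 and 0 reads in the parental libraries and 4 to 10 in the resistant ones. Most KRT6 reads of the resistant libraries were assigned to KRT6B, and reads that matched both copies were not counted. KRT16, named after its values were seen as the usual partner of KRT6A, had 1 to 5 reads in parental libraries, 7 to 13 in resistant cells off the drug and 22 to 30 on it. It passed the filter through the resistant indisulam libraries, so its reads are given as a description.

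TP63 (chromosome 3, 189631389-189897276) had 3 and 2 reads in untreated parental cells and 2 and 2 after the drug. In resistant cells it had 1 and 1 reads without indisulam and 2 and 8 with it. The exact 95% Poisson interval of the 8 reads runs from 3.45 to 15.8 and that of the 2 reads from 0.242 to 7.22, so the libraries overlap within counting error. TP63 did not pass the filter, and no fold change is given for it.

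S100A2, a calcium-binding protein of basal epithelia (chromosome 1, 153561108-153567890), had a higher CPM than KRT5, KRT6A, KRT17, TP63 and LY6D in every library. It had 33.2 and 33.0 CPM in untreated parental cells and 34.0 and 37.3 CPM after the drug. In resistant cells the values were 33.2 and 30.8 CPM without indisulam and 37.6 and 35.7 CPM with it. The lines overlapped in both conditions. Its log2 fold change between lines was -0.04 off the drug (SE 0.046, adjusted p = 0.428) and 0.04 on it (SE 0.046, adjusted p = 0.497). On the drug S100A2 was called higher in resistant cells with library totals alone (0.12, adjusted p = 0.0177), with only genes of at least 1 CPM (0.11, adjusted p = 0.0362) and without parental indisulam replicate 2 (0.13, adjusted p = 0.0209). The largest of these values stays below the line difference of each of the 4 simple keratins. S100A2 rose with indisulam in resistant cells by 0.19 (SE 0.047, adjusted p = 0.00203), and the change in parental cells was 0.11 (SE 0.045, adjusted p = 0.0436).

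LY6D, a GPI-anchored protein of the LY6 family (chromosome 8, 142784882-142786539), had 8 and 7 reads in untreated parental cells and 7 and 2 after the drug. In resistant cells it had 7 and 5 reads without indisulam and 25 and 26 with it. The first 3 groups overlapped in reads, and the libraries of resistant cells on the drug, with 0.371 and 0.270 CPM, lay above them. In the filtered fit its log2 fold change with indisulam in resistant cells was 1.84 (adjusted p = 0.00099) and that of resistant over parental cells on the drug 2.37 (adjusted p = 7.13e-05), given as a description because the filter kept the gene through its high group. Without the filter on low counts they were 1.83 (adjusted p = 0.000187) and 2.40 (adjusted p = 1.16e-06). Off the drug the lines differed by 0.31 without the filter (adjusted p = 0.788). The difference of responses was 2.09 without the filter (adjusted p = 0.029). In the filtered fit that difference was 2.06 (SE 0.761, adjusted p = 0.0274) and missed the threshold when either parental untreated library, parental indisulam replicate 2, resistant untreated replicate 2 or resistant indisulam replicate 1 was left out (adjusted p from 0.0595 to 0.154). Among the 4597 tested genes with a mean under 1 CPM, 18.7% were higher and 6.2% lower with indisulam in resistant cells, and the part of this shift in the LY6D values was not tested. An antisense non-coding gene (ENSG00000253715) overlaps its exons by 216 bases.

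Counted together without LY6D, the 6 tested genes moved upward or did not pass the test, and none was called lower in any of the 5 comparisons, although KRT8 was called lower with indisulam in parental cells when library totals alone were used (-0.09) or only genes with a mean of at least 1 CPM were kept (-0.08). With indisulam in parental cells 3 of 6 were higher (KRT7, KRT19 and S100A2), where 31.6% of all tested genes were called higher and 26.6% lower, and these 3 calls were not stable. The log2 fold changes of these 3 genes were 0.08 to 0.11, about the size of the shift of all genes between scalings (-0.07). With library totals alone all 3 missed the threshold, and the count fell to 0 without parental untreated replicate 2, parental indisulam replicate 2 or either resistant indisulam library, and to 1 without parental untreated replicate 1 or parental indisulam replicate 1. With indisulam in resistant cells 5 of 6 were higher (all but KRT19), against 24.9% of all genes higher and 25.8% lower, and the median over the 6 was 0.16, against 0.01 over all tested genes.

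Between the lines off the drug 5 of 6 were higher in resistant cells (all 5 tested keratins), against 30.3% of all genes higher and 29.9% lower. Their median log2 fold change was 0.79, against -0.02 over all genes. On the drug 5 of 6 were higher (all but S100A2, which gained a call in the 3 alternatives given above), against 34.6% higher and 34.9% lower, and the median was 0.97, against 0.00 for all genes. The comparisons share groups, so they are not independent of one another.

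The responses of the lines to indisulam differed for 3 of 6 genes, KRT8 (0.22, SE 0.042, adjusted p = 0.000112), KRT17 and KRT18 (0.13, SE 0.046, adjusted p = 0.0222), each more positive in resistant cells. Over all genes 22.7% were more positive and 27.5% more negative. Counted in either direction, 3 of 6 is near the share over all genes. Scaling by library totals alone raises every log2 difference here by 0.115, which is about the size of the KRT18 value. The KRT18 call was lost without either parental untreated library, parental indisulam replicate 1 or resistant indisulam replicate 1 (adjusted p from 0.0505 to 0.137) and with DESeq2 (adjusted p = 0.0736). With library totals alone KRT7 (0.14) and S100A2 (0.20) were called too, and KRT19 was at 0.05. S100A2 was also called with only genes of at least 1 CPM (0.16, adjusted p = 0.0456) and without parental indisulam replicate 2 (0.17, adjusted p = 0.029). KRT7 differed by 0.03 (SE 0.040, adjusted p = 0.594), KRT19 by -0.06 (SE 0.040, adjusted p = 0.207) and S100A2 by 0.08 (SE 0.065, adjusted p = 0.323).

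**Figure D4:**
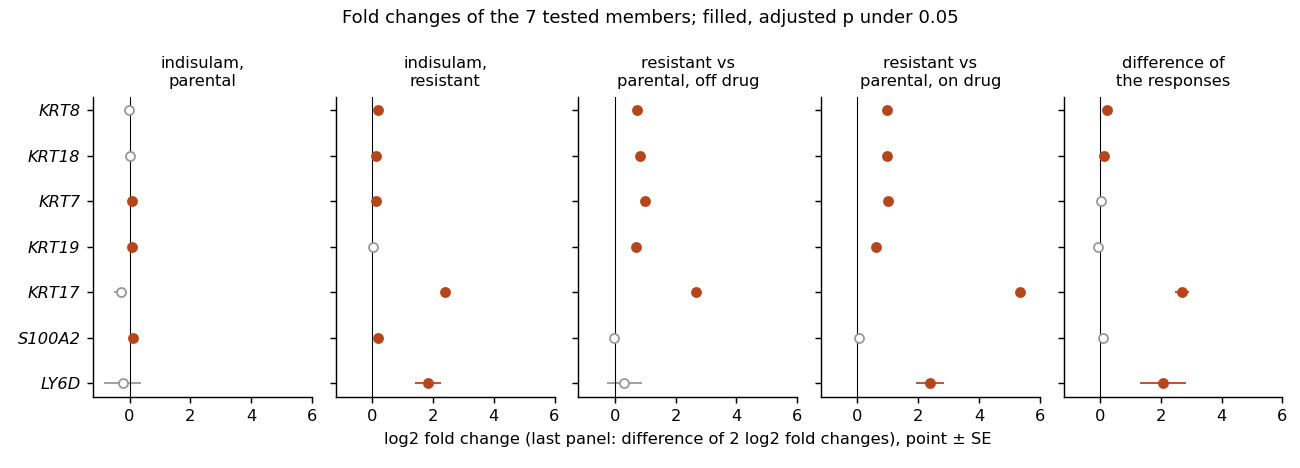
Log2 fold changes with SE of the 7 tested genes in the 4 group comparisons and, in the last panel, the difference between the responses of resistant and parental cells; filled points passed an adjusted p of 0.05. KRT17 stands at 5.36 between the lines on the drug, and no filled point lies below 0. LY6D passed the filter only through its reads in resistant cells on the drug.

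The counts of called genes in the related lists can be read against the shares over all tested genes. These were 30.3% higher and 29.9% lower in resistant cells off the drug, 34.6% and 34.9% on it, 31.6% and 26.6% with indisulam in parental cells, and 24.9% and 25.8% with it in resistant cells.

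The other keratins were mostly silent. Of the 25 other type I genes 4 were tested, and of the 22 other type II genes 4 were tested. All 4 tested type II genes were higher in resistant cells off and on the drug, with median log2 fold changes of 1.47 and 1.83. KRT83 passed the filter only through the resistant libraries, and the count and medians include it. KRT80, a type II keratin of many epithelia and the one of these 4 with the highest CPM, had 157 ± 2.08 CPM in untreated parental cells, 130 ± 0.581 after the drug, 259 ± 3.45 in resistant cells off and 265 ± 6.62 on the drug (SD, n = 2), and was higher in resistant cells by 0.73 off and 1.03 on the drug (adjusted p = 1.3e-16 and 2.24e-19). KRT81, a hair keratin, was higher by 2.66 and 3.31 (adjusted p = 1.07e-10 and 3.18e-13), from 17 to 27 reads in the parental libraries.

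Among the type I genes 2 were higher and 2 lower in resistant cells off the drug, and 2 were higher and 1 lower on it. All counts of this list include KRT16, which passed the filter through the resistant indisulam libraries. KRT15, a keratin of basal cells, had 2.18 ± 0.133, 1.48 ± 0.0340, 3.16 ± 0.266 and 4.29 ± 0.417 CPM in the usual order of the groups. It fell by 0.56 with indisulam in parental cells (adjusted p = 0.000534) and rose by 0.43 in resistant cells (adjusted p = 0.00152). KRT17 also rose in resistant cells, while its value of -0.30 in parental cells was not called (adjusted p = 0.31). KRT10, the type I keratin of differentiated epidermis, differed by -0.18 between resistant and parental cells off the drug and by -0.35 on it (adjusted p = 0.00887 and 6.71e-06), lower in the resistant line. KRT10 rose with indisulam in parental cells by 0.40 (adjusted p = 1e-06) and in resistant cells by 0.24 (adjusted p = 0.0019), where all 4 of these type I genes were called higher. In parental cells 2 of the 4 were higher and 1 lower.

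Of 18 further genes used as basal-like tumour markers 15 were tested. Off the drug 11 were higher and 3 lower in resistant cells, against 30.3% and 29.9% of all tested genes. On it 11 were higher and 2 lower, against 34.6% and 34.9%, and the medians were 0.67 and 0.75. SERPINB3, SERPINB4 and ANXA8 (higher) and DHRS9 (lower off the drug) passed the filter only through libraries of the line in which they are high. The counts and medians include these genes and are a description. VGLL1, a cofactor of TEAD transcription factors, had 1.70 ± 0.0288, 2.67 ± 0.395, 25.0 ± 0.406 and 47.1 ± 1.87 CPM (SD, n = 2) and was higher by 3.88 and 4.14 (adjusted p = 2.91e-23 and 2.68e-24). SCEL, a precursor of the cornified envelope, was higher by 0.43 and 1.30 (adjusted p = 1.33e-05 and 3.4e-14). FGFBP1, a carrier of fibroblast growth factors, went the other way, at -1.41 off and -0.72 on the drug (adjusted p = 2.54e-07 and 0.000549). With indisulam itself 4 of the 15 were higher and 2 lower in each line, with the higher share near that over all genes.

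Of 22 genes of basal epidermis or linked to p63 16 were tested. Off the drug 10 were higher and 4 lower in resistant cells, and on the drug 12 were higher and 1 lower. The 3 genes named next were chosen by the size of their fold changes, and none of those called lower is among them. LAMA3, a chain of laminin-332 in the epithelial basement membrane, was higher by 2.51 and 1.83 (adjusted p = 8.03e-26 and 1.54e-22). JAG2, a Notch ligand, was higher by 1.40 and 2.63 (adjusted p = 5.02e-12 and 2.74e-16). IVL, a cornified envelope protein, was higher by 2.07 and 2.49 (adjusted p = 7.06e-14 and 4.97e-16). TP63 itself had at most 8 reads in every library, parental and resistant, and a link of these genes to p63 was not tested.

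The proteins that tie keratins to desmosomes and to one another were represented by 12 genes, all tested. With indisulam 4 of the 12 were higher and 4 lower in parental cells, near the share over all genes, and 9 were higher and 2 lower in resistant cells. In resistant cells 10 were higher and 1 lower, both off and on the drug, with medians of 0.22 and 0.40. EPPK1 (epiplakin, a keratin-binding plakin) had 4.57 ± 0.143, 4.93 ± 0.0447, 16.2 ± 0.562 and 27.3 ± 0.0887 CPM and was higher by 1.83 and 2.47 (adjusted p = 1.36e-18 and 2.85e-21). JUP (plakoglobin) was higher by 0.40 and 0.82 (adjusted p = 2.54e-10 and 5.09e-16). EVPL (envoplakin) was higher by 0.27 and 0.78 (adjusted p = 0.025 and 0.00019).

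The other intermediate filaments went both ways. Of the 6 tested, 3 were higher and 1 lower in resistant cells off the drug, and 3 were higher and 3 lower on it. NES (nestin) was higher by 3.61 and 4.97 (adjusted p = 4.5e-19 and 1.36e-20) and SYNM (synemin) by 2.47 and 2.59 (adjusted p = 1.11e-15 and 1.16e-14). LMNB2, a nuclear lamin, was lower at -0.64 and -0.56 (adjusted p = 2.15e-14 and 1.72e-13).

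The relatives of S100A2 and LY6D were mostly called higher in resistant cells. Of 9 other tested S100 genes 8 were higher and 1 lower off the drug, and 7 were higher and 1 lower on it. S100A9, a subunit of calprotectin, had 0.486 ± 0.0148, 0.413 ± 0.0369, 25.1 ± 0.0255 and 27.7 ± 0.392 CPM and was higher by 5.69 and 6.06 (adjusted p = 1.52e-25 and 6.64e-25). S100A10 was higher by 0.77 and 0.61, and S100A11 by 0.60 and 0.14, with all 4 adjusted p at most 6.87e-05. Of 7 other tested LY6 and uPAR domain genes 5 were higher and 2 lower in both conditions. These counts include LYPD1 (higher) and LY6K (lower), which passed the filter only through the line in which they are high. LY6E was higher by 2.31 and 1.45 (adjusted p = 5.31e-26 and 8.49e-22) and fell by 0.69 with indisulam in resistant cells (adjusted p = 1.79e-15). LYPD5 was higher by 0.86 and 1.13 and LYPD3 by 0.79 and 1.00 (all 4 adjusted p at most 8.09e-08).

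**Figure D5:**
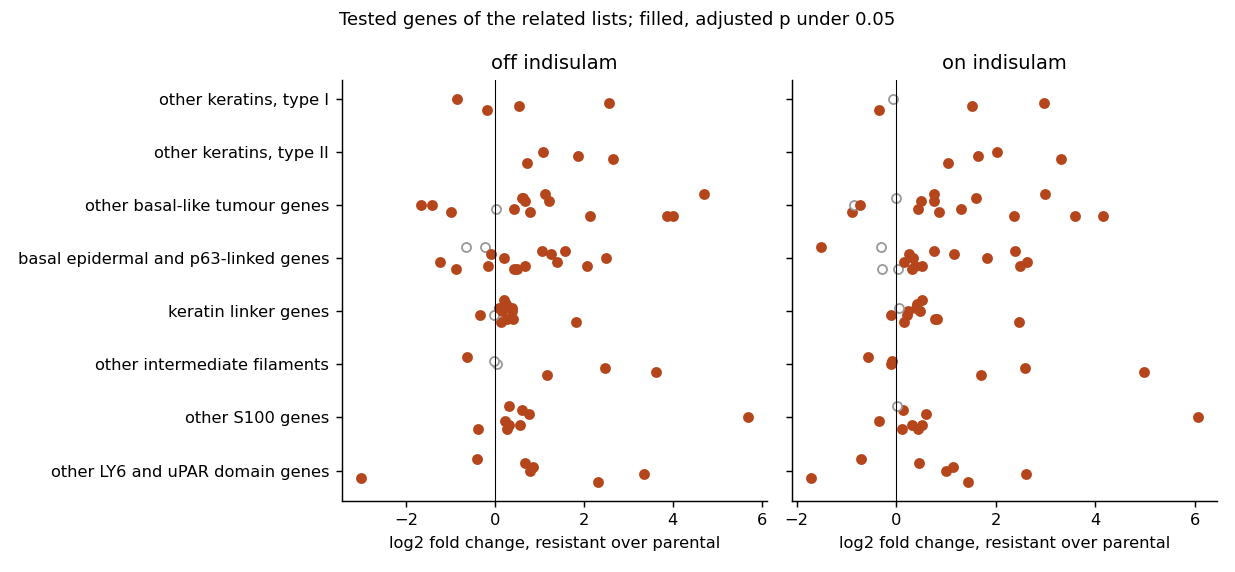
Log2 fold change of resistant over parental cells, off and on indisulam, for each tested gene of 8 related lists; each point is 1 gene and filled points passed an adjusted p of 0.05. All 4 tested type II keratins outside the 10 genes lie to the right of 0 in both panels, and S100A9 lies farthest right. KRT83, among these keratins, passed the filter only through the resistant libraries.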

How the data were processed

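PolyA+ stranded libraries were sequenced from 8 samples. The deposited values were raw counts of reads per Ensembl gene, made by the authors from reads aligned to GRCh38 with HISAT2 2.2.1, with Picard and HTSeq also named in the submitters' processing notes. Duplicates, reads of low mapping quality and reads matching more than 1 gene are kept in 9 separate lines and stayed out of library sizes. Reads of low mapping quality were 10.1 to 11.4% of a total of gene reads, themselves, and reads matching no gene or more than 1. Together the 9 lines held 37.9 to 44.9% of the sum over all lines of a library. The strand setting and annotation release are not given in the sources used here. Symbols and positions came from GENCODE v44 (60419 of 60675 IDs matched). Counts were filtered with filterByExpr, scaled by TMM and passed to the quasi-likelihood F test (edgeR 4.0.16, R 4.3.3) over all 8 libraries, with Benjamini-Hochberg adjustment over the tested genes and a threshold of 0.05. LY6D passed the filter only through its high group, so it is also given without the filter and left out of the counts, except those over the alternatives. These choices were made after its values were seen. SE is the log2 fold change divided by the square root of F. An exact permutation test of 2 against 2 libraries cannot give a p below 0.333. The procedure was tested on simulated data.

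The 10 genes and the related lists were chosen with earlier results of these data known. All 10 genes were named. From each list, up to 3 called genes were named, those with the largest log2 fold changes between groups at a mean over 8 libraries of 1 CPM or more, and the 5 genes nearest to the pattern of the gene with the widest range. Counts of 0 were bounded by 3 reads. Intervals and bounds cover counting error only. Promoters came from the RefSeq table, which matched 4 of the 10 genes. Alternatives were scaling by DESeq2 size factors or totals, the DESeq2 1.42.0 Wald test, other filters and thresholds, only the groups compared, a replicate block, copies added to their genes, each library left out, other gene lengths and, chosen after seeing the data, thinning to the smallest library. Adjusted p-values in the text are from edgeR unless another tool is named.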

Additional observations from a re-analysis of the deposited data

Results flagged for a closer look

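The response to indisulam differed between resistant and parental cells, by the test of the difference itself, for 3 of the 6 tested genes other than LY6D. Over all tested genes 22.7% were called more positive and 27.5% more negative in resistant cells. Counted in either direction, 3 of 6 is near the share over all genes, so the count alone does not set these genes apart. The differences of the log2 fold changes were 2.69 for KRT17, 0.22 for KRT8 and 0.13 for KRT18, all more positive in resistant cells. For LY6D the difference was 2.06, given as a description. LY6D passed the filter only through its reads in resistant cells on the drug. The calls of KRT18 and LY6D were lost when some single libraries were left out, with adjusted p up to 0.137 and 0.154. The related genes named in the report were chosen by their largest fold changes between these same groups, so their differences are a description. Among them the called differences were positive for NES (1.36), JAG2 (1.23), KRT15 (0.98), SCEL (0.87), FGFBP1 (0.69), EPPK1 (0.64), EVPL (0.51), IVL (0.42), JUP (0.42) and KRT80 (0.30). They were negative for LY6E (-0.86), LAMA3 (-0.68), S100A11 (-0.46) and S100A10 (-0.16). Groups of 2 libraries were too small for a test of single libraries standing apart.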

How the results depend on the processing

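Of 650 alternative values of single genes, 557 kept their direction and side of the threshold, 62 lost a call, 11 gained one and 20 changed sign, the last in values that had not been called. The calls of KRT7, KRT8, KRT17, KRT18 and KRT19 between the lines were kept in every alternative run. The counts that follow are over the 7 tested genes. They include LY6D, which passed the filter only through the group in which it is high, so they are a description. For indisulam in parental cells, where 3 genes were called, all 3 calls were lost and 1 other, KRT8 lower, was gained with library totals alone and with a mean CPM of at least 1. The count was 0 with no filter, a minimum effect of 0.5 log2 units, an adjusted p under 0.01, copies added or libraries thinned (an alternative chosen after seeing the data), and 0 to 2 with 1 library left out. KRT18 there went from 0.01 to -0.0562 with library totals, -0.0461 with the mean CPM filter, -0.0199 with no filter, -0.0102 with only the groups compared, -0.0066 with copies added and -0.0104 when thinned, and ranged from -0.0502 to 0.0309 with 1 library left out. LY6D there ranged from -1.39 to 0.40. In resistant cells 2 of the 6 calls were kept under the minimum effect, those of KRT17 and LY6D. KRT19 there ranged from -0.001 to 0.0431 with 1 library left out and was called with library totals (0.0727). Between the lines S100A2 ranged from -0.0997 to 0.0179 off and from -0.008 to 0.13 on the drug with 1 library left out, with a call gained in the latter without parental indisulam replicate 2, with library totals and with the mean CPM filter, and LY6D off the drug was -0.0944 when thinned. For the difference of responses, with 4 calls, 1 was kept under the minimum effect, 2 with an adjusted p under 0.01 and with DESeq2, and 2 to 4 with 1 library left out. KRT19 was 0.0537 there with library totals and 0.0235 with the mean CPM filter, and KRT7 was -0.0012 with DESeq2. The type I to type II ratio was 0.984, 0.991, 0.970 and 0.942 with longest transcripts, and 1.521 for resistant cells on the drug with copies added. With a replicate block the 5 counts were 2, 6, 5, 6 and 4. Deviations of same-numbered libraries correlated with r from -0.0682 to 0.0433. With 2 libraries a group these deviations cannot decide whether same-numbered libraries share a batch. S100A2 in parental cells lost its call under the block (adjusted p = 0.0635). The causes of these changes were not tested. Counts under about 10 reads limit LY6D, TP63, KRT5 and KRT6A.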
